A study of Mus musculus with 15 samples.

Results

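The genes described here are 10 members of the ATF4 amino acid stress response, measured in side population (SP) and non-SP cells of a mouse glioma model. They are Atf4, Atf5, Ddit3, Asns, Trib3, Chac1, Sesn2, Psat1, Phgdh and Shmt2, and every probe set of the array whose annotated symbol was 1 of these names was taken. That gave 23 probe sets of 45101 on the array, and 22 of the 23 passed the filter on low signals. The probe set that did not pass was 1439258_at of Atf4, whose signals ran from 1.26 to 38.1 over the 15 arrays. A further 2 probe sets that pair Phgdh with a predicted gene (Gm8096 or Gm6756) were set aside. All 10 genes were among the 11908 genes tested.

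In this response, stress kinases phosphorylate the translation factor eIF2 alpha, which slows most protein synthesis and lets the mRNA of ATF4 be translated more. ATF4 is a transcription factor of the bZIP family that switches on genes for amino acid synthesis, amino acid uptake and tRNA charging. Much of its control lies in translation, so that the amount of Atf4 mRNA is not a measure of the protein. DDIT3, also called CHOP, and ATF5 are bZIP factors downstream of it, and TRIB3 is a pseudokinase that it induces and that restrains it in turn. ASNS makes asparagine, CHAC1 degrades glutathione, and SESN2 restrains the growth kinase complex mTORC1 when leucine is scarce. PHGDH and PSAT1 catalyse early steps of serine synthesis, and SHMT2 turns serine into glycine and one-carbon units in mitochondria.

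SP cells are those that flow cytometry finds dim after staining with a dye of DNA, because membrane pumps of the ABC family export it. RNA of 15 cell samples was hybridised to 1 array each, with 3 arrays in each of 5 groups. Tumour lines 3447 and 4346 were tumorspheres, free-floating cultures from brain tumours of mice with the genotype S100beta-verbB;p53-/- or, alternatively, S100beta-verbB;p53+/-, and each line was passaged through the brains of 3 immunodeficient hosts of the strain NOD.Cg-Prkdc<scid>Il2rg<tm1Wjl>/SzJ and cultured again before sorting. Line 3447 gave SP and non-SP cells and line 4346 gave SP cells. The controls were untransformed neurospheres, sorted in the same way into SP and non-SP, which are cultures of neural stem and progenitor cells, from mice of the same genotypes. All 5 groups therefore came from mice with the verbB transgene, a form of the EGF receptor gene placed under the promoter of S100beta, and with reduced or absent p53. The labels do not say which p53 genotype a sample had. Each tumour line is 1 primary tumour, so its arrays show the spread between mice that carried the same line, not between tumours. The p-values use 1 estimate of the spread, pooled over all 5 groups. Leaving out an array of 1 group can therefore change a call between other groups. The study text gives the neurospheres both as coming from 3 independent mice and as coming from injected mice, so their origin is not certain.

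Values are intensities, MAS5 signals scaled by the authors so that the trimmed mean was 500 on each array. Array medians ran from 40.0 to 89.3, the highest on array 3 of the 3447 SP. Array 3 of the 4346 SP had a 3' to 5' signal ratio of 5.30 for actin, against 2.49 to 3.29 on the others. Both arrays are kept in the values below, and calls that are lost without both of them are named beside the result. Summed signals of 10 astrocyte and radial glia markers ran from 24295 to 37361 on the tumour arrays and from 46568 to 75664 on the neurosphere arrays. Of these 10, 3 were higher in the tumour group in each comparison of tumour with neurosphere. Summed signals of 7 oligodendrocyte markers, 4 of which passed the filter, ran from 16244 to 26854 on tumour arrays and from 3401 to 7058 on neurosphere arrays. Of these 4, 3 were higher in the tumour group in each comparison. Sums of 8 oligodendrocyte progenitor markers overlapped, at 17836 to 34429 on tumour arrays and 15937 to 23700 on neurosphere arrays. Those of 8 endothelial markers, 1 of which passed the filter, ran from 99.2 to 243 on tumour arrays and from 346 to 2106 on neurosphere arrays. Of 8 microglia markers, 0 passed the filter, and their summed signal was 57.3 to 154 on the 15 arrays. The astrocyte, oligodendrocyte and endothelial sums move with the contrast of tumour and neurosphere, and their part in the results below was not tested. In such bulk samples fewer cells of a type and less RNA per cell cannot be told apart.

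Promoter sequence is shown for the members that bear on this set as an ATF4 response: Asns and Chac1, whose windows hold the core of the element through which ATF4 and C/EBP factors act, and Shmt2, the only member that passed as lower in a tumour group. Each is the 250 bases before the annotated start, 5′ to 3′ on the strand of the gene, from RefSeq on GRCm38.p6. Capitals mark a match to TGATGNAA or, for the other strand, TTNCATCA, where N is any base. The Asns window is chr6:7693210-7693459, minus strand, the Chac1 window chr2:119350992-119351241, plus strand, and the Shmt2 window chr10:127522445-127522694, minus strand.
Asns: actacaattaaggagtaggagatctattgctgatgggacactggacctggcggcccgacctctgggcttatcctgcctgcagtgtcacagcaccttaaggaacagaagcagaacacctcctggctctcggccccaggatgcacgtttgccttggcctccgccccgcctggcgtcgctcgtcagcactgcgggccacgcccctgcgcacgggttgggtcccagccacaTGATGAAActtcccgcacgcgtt
Chac1: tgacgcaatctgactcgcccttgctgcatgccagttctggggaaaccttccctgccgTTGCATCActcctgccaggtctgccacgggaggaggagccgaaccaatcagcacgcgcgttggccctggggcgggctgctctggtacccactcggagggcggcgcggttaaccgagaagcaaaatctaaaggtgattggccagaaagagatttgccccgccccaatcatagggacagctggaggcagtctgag
Shmt2: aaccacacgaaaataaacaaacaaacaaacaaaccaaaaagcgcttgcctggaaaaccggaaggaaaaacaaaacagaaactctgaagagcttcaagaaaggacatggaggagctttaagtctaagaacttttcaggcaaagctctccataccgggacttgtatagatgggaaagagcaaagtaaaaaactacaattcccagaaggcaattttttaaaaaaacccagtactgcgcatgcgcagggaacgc
The match in Asns begins 23 bases before the start, on the strand of the gene, and that in Chac1 lies 193 bases before it, on the other strand. Both were found by searching 12 windows of the 10 members on both strands, and the other 10 windows held no match. Of all 32851 promoter windows of the same length, 1134 held a match (3.45%). No match says only that these letters are not in this window.

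**Figure D1:**
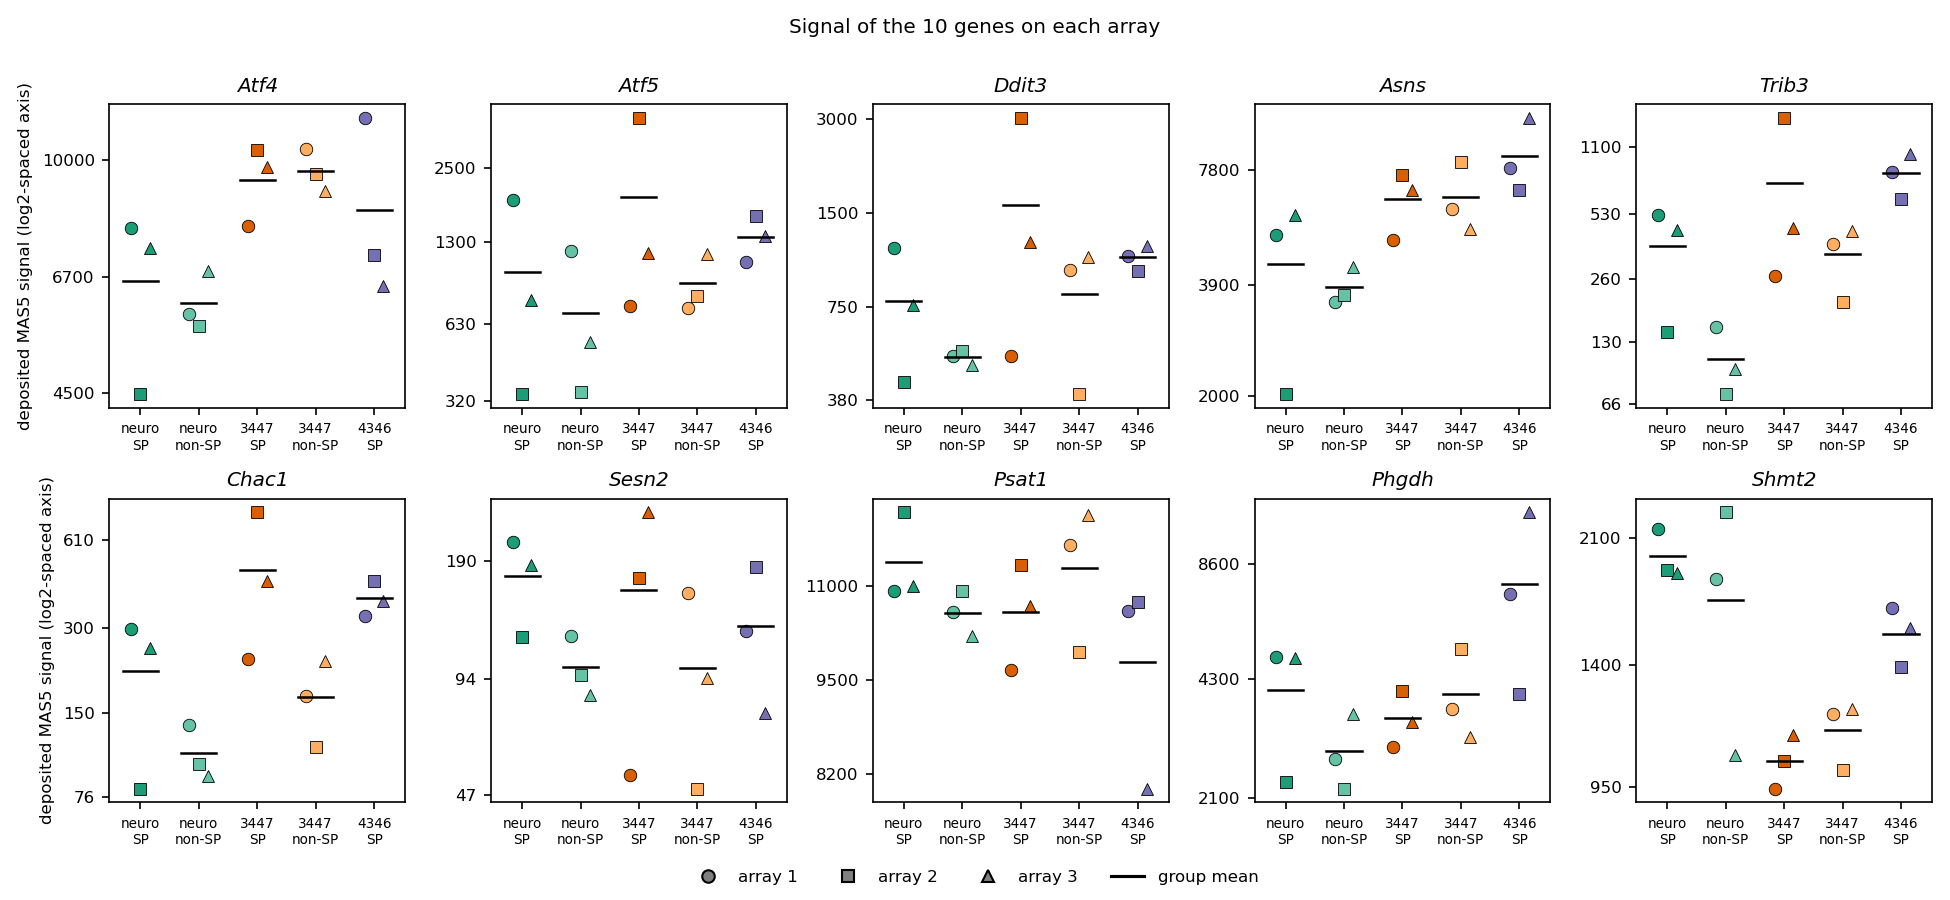
Deposited MAS5 signal (log2-spaced vertical axis) of the probe set with the highest mean of each gene, on 3 arrays in each of 5 groups; horizontal bars are group means of the signal. All 3 Asns values of the 4346 SP lie above all 3 of the neurosphere SP, and the Shmt2 values of the 3447 SP lie below those of the neurosphere SP, while Psat1 keeps between 8018 and 12350 on all 15 arrays.

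Among the transcription factors, Atf4 passed as higher in the tumour line 3447 than in neurospheres by its brightest probe set, in SP and in non-SP cells. Its signals were 7929, 4483 and 7407 in the neurosphere SP and 7976, 10335 and 9746 in the 3447 SP, in the order of arrays 1 to 3. In non-SP cells they were 5907, 5658 and 6823 in neurospheres and 10383, 9522 and 8998 in line 3447. The 3447 arrays did not overlap with the neurosphere arrays in either pair, but in the SP pair the gap between the nearest arrays was small. The log2 difference was 0.62 ± 0.21 (SE; limma, adjusted p = 0.0466) in SP cells and 0.62 ± 0.21 (limma, adjusted p = 0.0479) in non-SP cells, both 1.53- to 1.54-fold. In the 4346 SP the signals were 11555, 7221 and 6499.5, which overlap with the neurosphere SP, and the log2 difference of 0.35 ± 0.21 did not pass (adjusted p = 0.241). Atf4 had 3 probe sets, and 1438992_x_at gave 3242, 1602 and 2624 in the neurosphere SP and 1760.3, 2147 and 1873 in the 3447 SP. That is a log2 difference of -0.30 ± 0.24 in the SP pair, with the sign opposite to that of 1448135_at, and it did not pass (limma over all probe sets, adjusted p = 0.460). In non-SP cells 1438992_x_at was above 0 as well, at 0.48 ± 0.24 (adjusted p = 0.216).

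Both Atf4 calls lie close to the threshold of an adjusted p of 0.05. The SP call was kept in 5 of 15 fits that each left out 1 array, those without array 1 or 3 of the neurosphere SP, array 3 of the neurosphere non-SP, or array 1 or 3 of the 4346 SP; without array 2 of the neurosphere SP the log2 difference was 0.36 (limma, adjusted p = 0.207). The non-SP call was also kept in 5 of 15, those without any 1 array of the neurosphere SP or without array 1 or 3 of the 4346 SP, with an adjusted p of up to 0.134 among the other 10. It was also lost after median centring (0.81, adjusted p = 0.0757) and with the mean of probe sets (0.55, adjusted p = 0.0711). The SP call was lost after median centring (0.33; limma, adjusted p = 0.534) and with the mean of probe sets (0.16, adjusted p = 0.637). It was lost as well with signals as deposited (0.54, adjusted p = 0.0954), with array weights (0.55, adjusted p = 0.0657) and without both arrays that stand apart (0.57, adjusted p = 0.105). With no trend neither the SP call (adjusted p = 0.103) nor the non-SP call (adjusted p = 0.105) was kept.

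Atf5 and Ddit3 showed no difference that passed in any comparison, with wide spreads. Atf5 signals were 1885, 341 and 779 in the neurosphere SP, 1209, 348 and 541 in the neurosphere non-SP and 744, 3909.8 and 1188 in the 3447 SP. They were 731, 813 and 1171 in the 3447 non-SP and 1093, 1642 and 1375 in the 4346 SP, so array 2 of the 3447 SP held the highest value and all 5 groups overlapped with their neighbours in order. The within-group SD of Atf5 on the log2 scale was 0.89, larger than that of 96.3% of the genes tested. Ddit3 signals were 1159, 432 and 762 in the neurosphere SP, 526, 543 and 489 in the neurosphere non-SP and 524, 3033 and 1213 in the 3447 SP. In the 3447 non-SP they were 990.0, 396 and 1091, and in the 4346 SP 1093, 983 and 1176. Array 2 of the 3447 SP was again the highest and its array 1 among the low ones. The Ddit3 difference between tumour and neurosphere was 0.74 ± 0.51 in the 3447 SP, 0.53 ± 0.51 in the 4346 SP and 0.52 ± 0.51 in the 3447 non-SP, with adjusted p of 0.350, 0.489 and 0.537 (limma). Its dimmer probe set 1443897_at, at 145 to 237 in the neurosphere SP and 66.7 to 199 in the 4346 SP, gave -0.52 ± 0.40 for the 4346 SP, the opposite sign, without passing (adjusted p = 0.389).

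Asns, the asparagine synthetase that is a standard readout of ATF4 activity, passed as higher in the 4346 SP, and by the other of its probe sets in all 3 comparisons of tumour with neurosphere. By the probe set with the highest mean, 1433966_x_at, signals were 5282, 2029.6 and 5957 in the neurosphere SP and 3537, 3679 and 4348 in the neurosphere non-SP. They were 5119, 7578 and 6923 in the 3447 SP, 6178, 8209 and 5471 in the 3447 non-SP and 7917, 6926 and 10681 in the 4346 SP. The 4346 SP arrays lay above all neurosphere arrays, and so did those of the 3447 non-SP when set against the neurosphere non-SP, whereas array 1 of the 3447 SP fell within the range of the neurosphere SP. Asns passed in the 4346 SP, with a log2 difference of 1.05 ± 0.30 (2.07-fold; limma, adjusted p = 0.018). In the 3447 SP the difference was 0.77 ± 0.30 (adjusted p = 0.0841), and in the 3447 non-SP it was 0.75 ± 0.30 (adjusted p = 0.096), neither of which passed. The 3447 SP difference passed without array 3 of the neurosphere SP (1.05, adjusted p = 0.0273) and the non-SP difference without array 2 of the neurosphere SP (0.74, adjusted p = 0.0112). The 4346 call was lost without array 2 of the neurosphere SP (0.58, adjusted p = 0.0661), without array 3 of the 4346 SP (0.89, adjusted p = 0.0782) and without both arrays that stand apart (0.89, adjusted p = 0.0936).

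The other Asns probe set, 1451095_at, is not of the _x_at kind, whose probes may also bind other transcripts, and its signals were closer together within groups. It gave 4142, 2351 and 5321 in the neurosphere SP, 3421, 3640.5 and 3841 in the neurosphere non-SP and 5360.5, 7672 and 6299.9 in the 3447 SP. In the 3447 non-SP it gave 5978, 6878 and 5823 and in the 4346 SP 6591, 7315 and 6336. All 9 tumour arrays were above all 6 neurosphere arrays, but the gap between the nearest, 5360.5 in the 3447 SP and 5321 in the neurosphere SP, was small. With each probe set tested, 1451095_at passed in all 3 comparisons of tumour with neurosphere. The log2 difference was 0.84 ± 0.21 in the 3447 SP (limma, adjusted p = 0.0115). It was 0.85 ± 0.21 in the 4346 SP (adjusted p = 0.00918) and 0.75 ± 0.21 in the 3447 non-SP (adjusted p = 0.0216). The 4346 call was kept in all 15 fits that left out 1 array, while the 3447 SP call was lost without array 2 of the 3447 SP (0.73, adjusted p = 0.0561) and the non-SP call without array 1 of the neurosphere non-SP (0.70, adjusted p = 0.0766) or array 2 of the 3447 non-SP (0.66, adjusted p = 0.0905).

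Trib3, the pseudokinase that ATF4 induces, had the widest range of group means among the members, 2.85 on the log2 scale, wider than that of 94.4% of the genes tested. All Trib3 values here are of 1456225_x_at, the one with the highest mean of its 2 kept probe sets. On array 3 of the 4346 SP it was 0.48 above the mean of the other 4346 arrays, whereas 1426065_a_at was at -0.93. Trib3 signals were lowest in the neurosphere non-SP, at 153, 73.3 and 96.6, and were 524, 144 and 444 in the neurosphere SP. They were 381, 201 and 439.8 in the 3447 non-SP, 267, 1521 and 452 in the 3447 SP and 839, 625 and 1019 in the 4346 SP. The neurosphere non-SP did not overlap with the 3447 non-SP, nor the neurosphere SP with the 4346 SP. The difference was 1.54 ± 0.57 for the 3447 non-SP over the neurosphere non-SP (limma, adjusted p = 0.0701) and 1.25 ± 0.57 for the 4346 SP over the neurosphere SP (adjusted p = 0.124). Neither passed, nor did the 0.70 ± 0.57 of the 3447 SP (adjusted p = 0.434). The non-SP difference passed without array 2 of the neurosphere SP (1.55; limma, adjusted p = 0.0454) and without array 1 (1.55, adjusted p = 0.0485) or array 2 (1.54, adjusted p = 0.0308) of the 3447 SP. It also passed after median centring (1.67, adjusted p = 0.0482), with array weights (1.51, adjusted p = 0.0460) and with the compared groups alone (1.57, adjusted p = 0.0223).

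Chac1, the glutathione-degrading enzyme, had signals of 296, 81.1 and 253 in the neurosphere SP, 136, 99.2 and 90.0 in the neurosphere non-SP and 233, 766 and 437 in the 3447 SP. In the 3447 non-SP they were 172, 114 and 228 and in the 4346 SP 331, 438 and 373. The 4346 SP lay above the neurosphere SP without overlap, whereas array 1 of the 3447 SP lay within the neurosphere range. The difference from the neurosphere SP was 1.06 ± 0.46 in the 3447 SP (limma, adjusted p = 0.119) and 0.96 ± 0.46 in the 4346 SP (adjusted p = 0.141), and neither passed. Without array 1 of the 3447 SP the 3447 difference was 1.51 and passed (adjusted p = 0.0404). Sesn2, the leucine sensor, ran from 121 to 213 in the neurosphere SP, from 85.4 to 121 in the neurosphere non-SP and from 52.9 to 254 in the 3447 SP. All its groups overlapped with their neighbours in order. Its differences from the neurosphere SP were -0.43 ± 0.50 in the 3447 SP and -0.37 ± 0.50 in the 4346 SP, and it passed nowhere.

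Among the enzymes of serine and glycine metabolism, Shmt2 was the member that fell in the tumour line 3447. Its signals were 2163, 1899 and 1882 in the neurosphere SP and 944, 1031 and 1122 in the 3447 SP. In the 4346 SP they were 1678, 1392 and 1574. In non-SP cells they were 1841, 2281 and 1049.9 in neurospheres and 1196, 1000.0 and 1217 in line 3447. The SP groups were ordered neurosphere, 4346 and 3447 without overlap, and array 3 of the neurosphere non-SP lay among the 3447 values. Shmt2 fell in the 3447 SP by 1.94-fold, a log2 difference of -0.96 ± 0.25 (limma, adjusted p = 0.0116), a call kept in all 15 fits that left out 1 array and without both arrays that stand apart (-1.04, adjusted p = 0.0195). With each probe set tested, it was lost without array 1 of the neurosphere SP (adjusted p = 0.0527) and without array 1 of the 3447 SP (adjusted p = 0.0526). The difference was -0.53 ± 0.25 in non-SP cells (adjusted p = 0.148) and -0.37 ± 0.25 in the 4346 SP (adjusted p = 0.298), and neither passed. Without array 3 of the neurosphere non-SP the non-SP difference was -0.86 and passed (adjusted p = 0.0115). Its other 3 probe sets were also below 0 in the 3447 SP, at -0.51, -0.93 and -0.23, without passing, and the mean over its 4 probe sets gave -0.66 (limma, adjusted p = 0.0527).

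Phgdh, the first enzyme of serine synthesis, had signals of 4909, 2307 and 4876 in the neurosphere SP, 2647, 2219 and 3481 in the neurosphere non-SP and 7193, 3927 and 11785 in the 4346 SP by the probe set with the highest mean, 1454714_x_at. In line 3447 they were 2859.7, 3992 and 3316 in the SP and 3579, 5145 and 3034 in the non-SP. Array 3 of the 4346 SP was the highest of the 15, and array 2 of the same group fell within the neurosphere range. The difference of the 4346 SP from the neurosphere SP was 0.84 ± 0.35 (limma, adjusted p = 0.0922) and did not pass, but without array 2 of the 4346 SP it was 1.25 and passed (adjusted p = 0.0132). That fit keeps array 3, the array with the high 3' to 5' ratio for actin, and by this probe set the difference passed in no other setting. Normalized log2 values of arrays 1 to 3 of the 4346 SP were 12.80, 11.91 and 13.47, against a neurosphere SP mean of 11.89. The probe set 1426658_x_at gave 666, 694 and 658 in the 4346 SP against 373, 197 and 398 in the neurosphere SP, without overlap. With each probe set tested it passed, with a log2 difference of 1.05 ± 0.28 (adjusted p = 0.0141), and the call was lost without array 2 of the neurosphere SP (0.74, adjusted p = 0.0757). It was the only 1 of the 4 Phgdh probe sets that passed there, and its signals were far below those of 1454714_x_at. Psat1, the next enzyme of the pathway, ran from 8018 to 10729 in the 4346 SP and from 10918 to 12350.4 in the neurosphere SP. Its within-group SD of 0.13 on the log2 scale was smaller than that of all but 3.43% of genes, and its 4346 difference of -0.26 ± 0.11, without overlap, did not pass (limma, adjusted p = 0.0844), while without array 2 of the 4346 SP it was -0.34 and passed (adjusted p = 0.0425). Normalized log2 values of Psat1 on arrays 1 to 3 of the 4346 SP were 13.33, 13.37 and 12.94, against a neurosphere SP mean of 13.47. The lowest is thus on array 3, with the high 3' to 5' ratio, which the passing fit keeps.

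**Figure D2:**
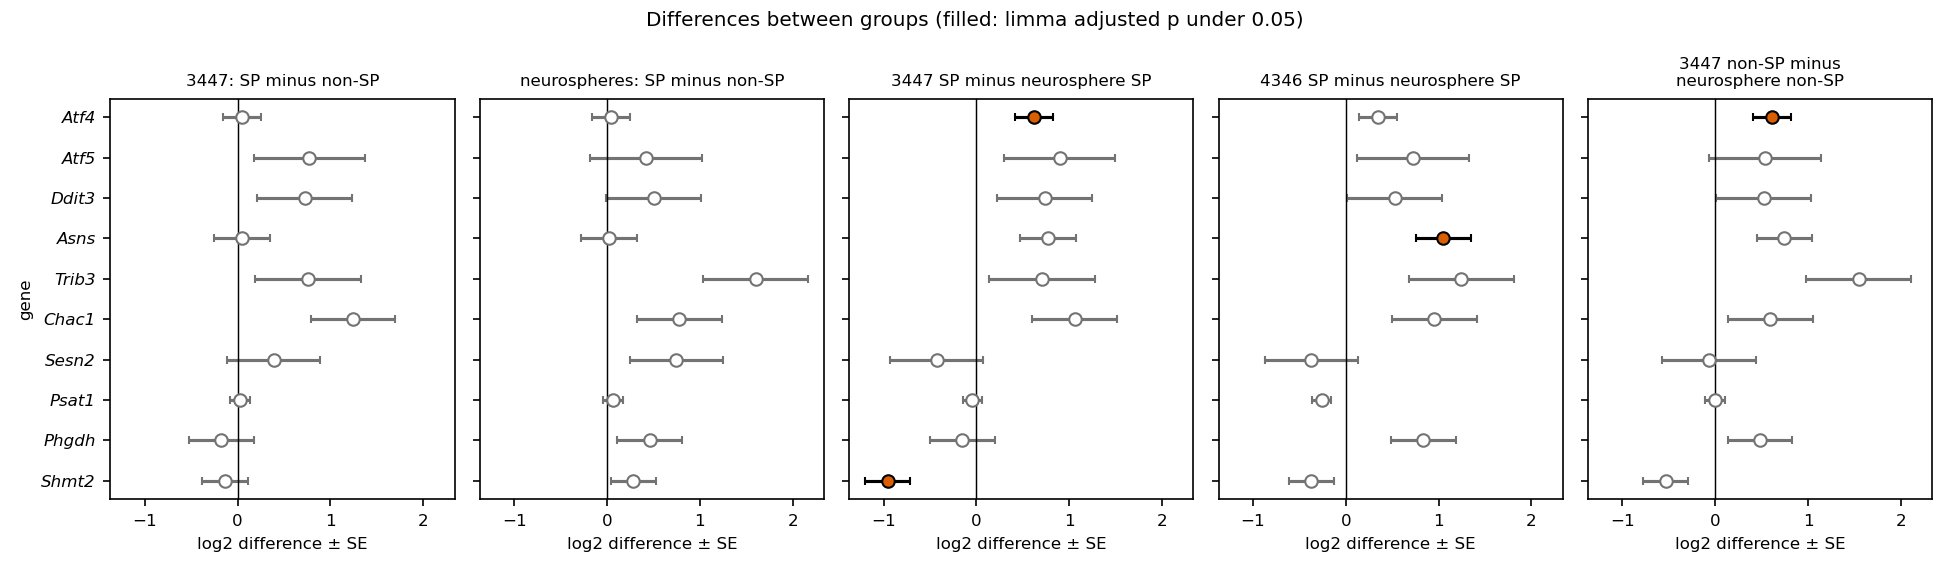
Log2 difference (horizontal axis, with SE) of each member in 5 comparisons, from limma over all 15 arrays; filled points have an adjusted p under 0.05. Filled points are Atf4 and Shmt2 in the 3447 SP against the neurosphere SP, Asns in the 4346 SP, and Atf4 in the 3447 non-SP; no point is filled in either comparison of SP with non-SP.

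Counted over members, 2 of 10 passed in the 3447 SP against the neurosphere SP, Atf4 higher and Shmt2 lower, where 19.6% of all genes tested passed, 10.7% higher and 8.96% lower. In the 4346 SP 1 of 10 passed, Asns, where 24.3% of all genes did, 14% higher and 10.3% lower. In the 3447 non-SP against the neurosphere non-SP 1 of 10 passed, Atf4, where 19.4% of all genes did, 11.2% higher and 8.21% lower. The counts of members are thus near or below the share of all genes. The median log2 difference over the 10 members was 0.66 in the 3447 SP, 0.63 in the 4346 SP and 0.53 in the 3447 non-SP, against -0.03, 0.02 and 0.04 over all genes tested. Members above 0 numbered 6, 7 and 8 of 10, against 47.8%, 51.0% and 52.9% of all genes. The first and second of these comparisons share the neurosphere SP arrays. The groups did not overlap for 2 members in the 3447 SP, 5 in the 4346 SP and 3 in the 3447 non-SP, where the share of all genes without overlap was 36%, 36.9% and 38.8%.

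Whether the response differs in the dye-excluding cells was read from SP against non-SP arrays of 1 origin. In line 3447, 0 of 10 members passed, where 0.0084% of all genes tested, a single gene, did. The member with the largest difference was Chac1, at 233, 766 and 437 in SP and 172, 114 and 228 in non-SP cells, so that the deposited signals did not overlap. After normalization they did, in 1 array of each group, and the log2 difference of 1.24 ± 0.46 did not pass (limma, adjusted p = 0.581; unadjusted p = 0.0152). Atf5, Ddit3 and Trib3 were at 0.77, 0.72 and 0.76, with intervals that include 0, for example -0.45 to 1.96 for Trib3. In all, 8 of 10 members were above 0 (median 0.22, against -0.01 over all genes, of which 48.3% were above 0) and 1 of 10 had an unadjusted p under 0.05, as had 7.21% of all genes. With arrays centred on their medians in place of quantile normalization, 5 of 10 were above 0 and the median over all genes was -0.30, so the direction of Atf4, Asns and Psat1 depends on the scaling. Summed signals of 10 DNA replication genes were 29022 to 39227 in the 3447 SP and 47365 to 54775 in the non-SP. Of these 10 genes 10 were lower in SP cells (median log2 difference -0.57) and 0 passed, and their part in these differences was not tested.

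In neurospheres 0 of 10 members passed, where 0.0168% of all genes did, and 10 of 10 were above 0 (median 0.44, against 0.04 over all genes, of which 57.0% were above 0). The largest difference was that of Trib3, with a fold of 3.03. Its SP signals of 524, 144 and 444 and non-SP signals of 153, 73.3 and 96.6 overlapped in array 2 of the SP and array 1 of the non-SP. The log2 difference was 1.60 ± 0.57 (limma, unadjusted p = 0.0125; with the replicate number as a block, adjusted p = 0.457) and did not pass. Within equal replicate numbers, which pair these arrays, the Trib3 difference was 1.69, 1.16 and 1.95. Atf5, Trib3, Chac1, Sesn2, Psat1 and Phgdh were above 0 in 3 of 3 numbers, as were 20.8% of all genes. Summed signals of 10 immediate early and dissociation genes were 58989 to 70235 in the neurosphere SP and 47325 to 53632 in the non-SP. Of these 10 genes 0 passed, and their part was not tested.

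Averaged over both origins, 0 of 10 members passed, where 0.168% of all genes did. Trib3 stood at 1.18 ± 0.40 and Chac1 at 1.01 ± 0.32 (limma, adjusted p = 0.375 and 0.334). Of the 10 members 10 were above 0, as were 52.9% of all genes, but 5 members with arrays centred on their medians. The SP difference did not differ between line 3447 and neurospheres at the threshold for any member, nor for any gene (0%), and 0 of 10 members had an unadjusted p under 0.05 there, as had 2.23% of all genes. For Trib3 the difference between the origins was -0.84 ± 0.80, with a 95% interval of -2.54 to 0.86, so that these arrays do not tell a like effect from an unlike one.

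Between the tumour lines, 0 of 10 members passed in the SP, where 1.65% of all genes did. Phgdh had the largest difference, with signals of 2859.7, 3992 and 3316 in the 3447 SP and 7193, 3927 and 11785 in the 4346 SP, which overlap in 1 array of each. Its log2 difference, 3447 minus 4346, was -0.99 ± 0.35 (limma, adjusted p = 0.175), with a 95% interval of -1.72 to -0.25. Without array 2 of the 4346 SP it was -1.40 and passed (adjusted p = 0.0379), as it did after median centring (-1.44, adjusted p = 0.0349). Both of these fits keep array 3 of the 4346 SP, the array with the high 3' to 5' ratio for actin. All 4 Phgdh probe sets were below 0 here, from -0.79 to -1.51. Shmt2 was 1 of 10 members without overlap, against 19.6% of all genes, and was at -0.59 ± 0.25 (adjusted p = 0.250).

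**Figure D3:**
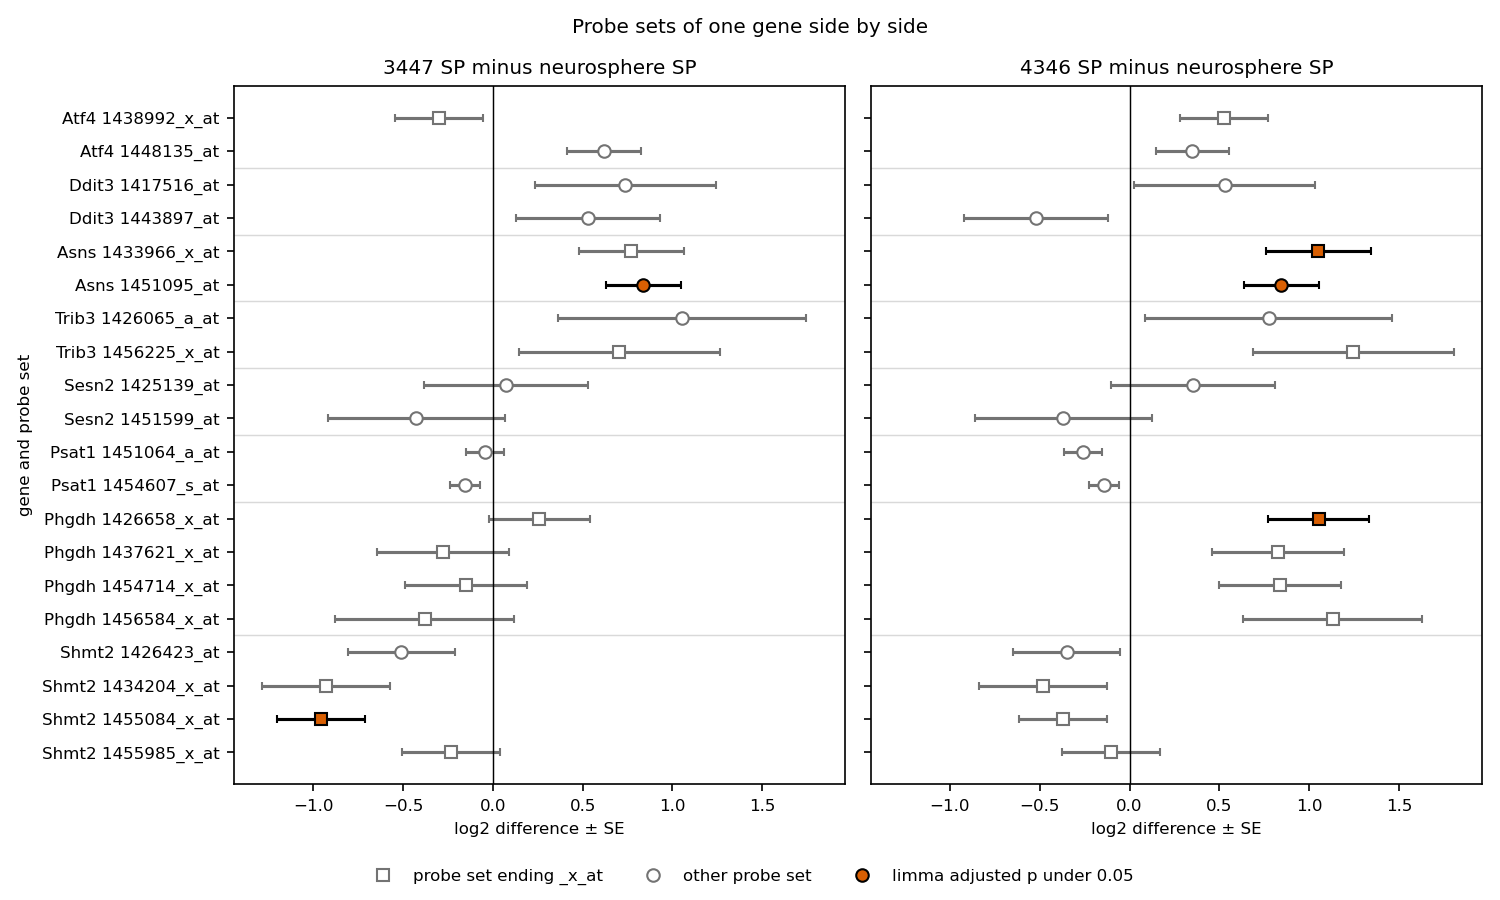
Log2 difference (horizontal axis, with SE) of each probe set of the 8 members that have several, in 2 comparisons, from limma over all probe sets; squares are _x_at probe sets and filled symbols have an adjusted p under 0.05. Probe sets of Atf4, Sesn2 and Phgdh lie on both sides of 0 in the 3447 SP and those of Ddit3 and Sesn2 in the 4346 SP, while both of Asns lie above 0 in each.

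Probe sets of 1 gene did not deviate alike on array 3 of the 4346 SP, the array with the high 3' to 5' ratio. On that array 3 of the 4 Phgdh probe sets were 1.11, 1.22 and 1.26 above the mean of the other 4346 arrays on the log2 scale, whereas 1426658_x_at was at -0.05. For Asns the values were 0.48 for 1433966_x_at and -0.12 for 1451095_at. For Atf4 they were 0.43 for 1438992_x_at and -0.47 for 1448135_at, and for Trib3 0.48 for 1456225_x_at and -0.93 for 1426065_a_at. Over all kept probe sets the median was 0.28 for the 1670 of the _x_at kind and -0.12 for the 19680 plain _at ones. With each of the 22 probe sets tested, 1 was higher and 1 lower in the 3447 SP, 3 were higher in the 4346 SP and 1 was higher in the 3447 non-SP, where 15.2%, 19.8% and 15.2% of all probe sets passed.

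**Figure D4:**
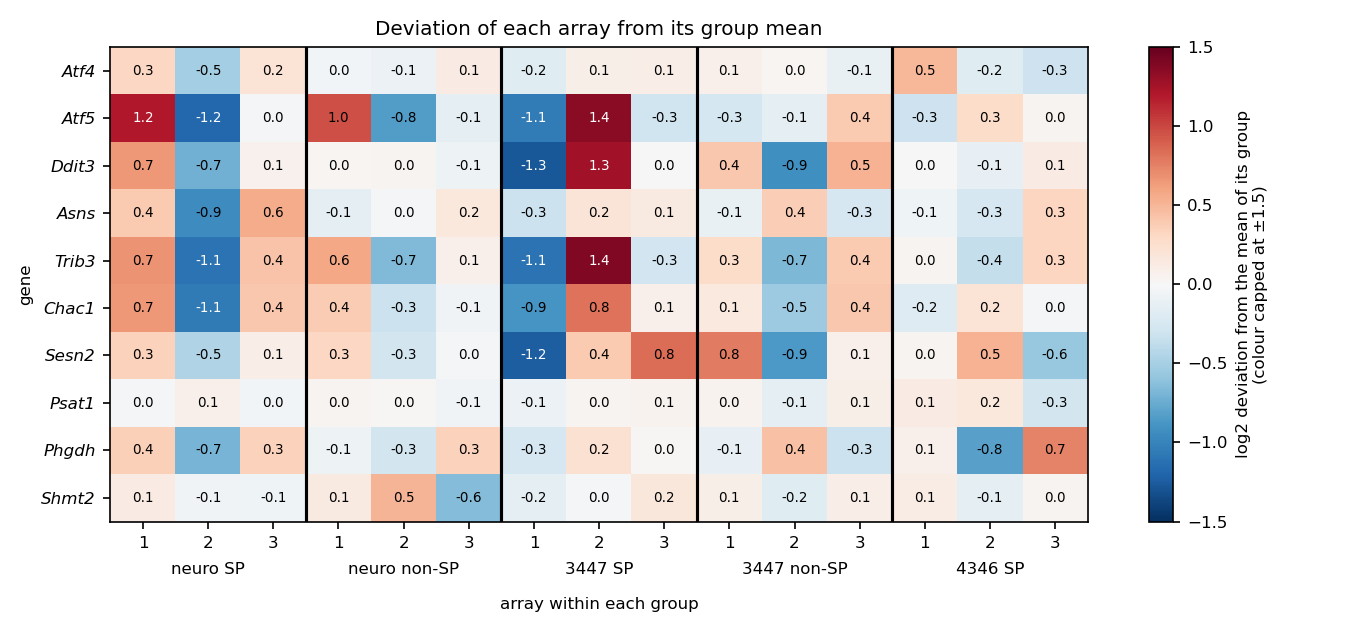
Deviation of each array from the mean of its own group (log2, colour and printed value) for 10 members on 15 arrays, in 5 blocks of 3. In the 3447 SP, array 1 is blue or near 0 in all 10 rows and array 2 is red for Atf5, Ddit3, Trib3 and Chac1; in the neurosphere SP, array 2 is blue for 8 members.

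In the 3447 SP and the neurosphere SP, several members deviated in the same direction on the same array. Array 1 of the 3447 SP was the lowest of its group for 10 of 10 members, as it was for 36.8% of all genes. Array 2 of the same group was the highest for Atf5, Ddit3, Asns, Trib3, Chac1 and Phgdh, as for 39.3% of all genes. Between these 2 arrays Ddit3 went from 524 to 3033 and Trib3 from 267 to 1521. In the neurosphere SP, array 1 was the highest for 8 members and array 2 the lowest for 8, against 35% and 37.0% of all genes. Members went both ways in other groups. Array 2 of the 3447 non-SP was the highest for Asns and Phgdh and the lowest for 6 members, against 34.0% and 35.3% of all genes. For array 3 of the 4346 SP these numbers were 4 and 3, against 41.2% and 40.9%. Atf5, Trib3, Ddit3, Sesn2 and Chac1 had within-group SDs above those of 96.3%, 94.8%, 91.5%, 89.0% and 84.9% of genes tested. Atf4 and Shmt2 were tighter than the middle gene, at 33.3% and 32.3%.

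By correlation of the deviations from the 5 group means over 15 arrays, Chac1 ranked 6, Ddit3 18 and Atf5 31 among all other genes for likeness to Trib3, with Pearson r of 0.919, 0.891 and 0.872. The other members were less alike, with r of 0.571 for Sesn2, 0.518 for Asns, 0.476 for Phgdh and 0.469 for Atf4. Shmt2 and Psat1 were at 0.064 and 0.013. The closest genes that are not members were Rpusd4, Ddx27, Maea, Zfp768 and Zswim8, with r from 0.920 to 0.939. Across the 15 arrays without removal of group means, Chac1 ranked 2 with r of 0.928, and the closest other genes were Zfp213, Zdhhc7, Terf2, Zfp622 and Ppp2cb, at 0.903 to 0.936. The r of the other members with Trib3 ran from -0.266 for Psat1 to 0.859 for Ddit3. For Asns the closest across arrays were Gars and Sars, which charge tRNA, with Pcbp4, Xbp1 and the amino acid transporter gene Slc38a2, at 0.913 to 0.928. By deviations they were Eif4ebp1, an inhibitor of translation initiation, with Gtf2h4, Rassf1, Eif3f and Mul1, at 0.883 to 0.933. Phgdh ranked 22 there, with r of 0.844. By deviations the other members ran from -0.506 for Psat1 to 0.596 for Atf4, with Shmt2 at -0.050. Across arrays the r of members with Asns ran from -0.586 for Psat1 to 0.767 for Phgdh. These correlations share arrays, depth and scaling and are given as a description.

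Other genes of the pathway were read from 8 lists with 96 genes tested. Of these, 5 passed higher and 9 lower in the 3447 SP against the neurosphere SP, where 10.7% and 8.96% of all genes did. In the 4346 SP 12 passed higher and 9 lower, where 14% and 10.3% of all genes did, and in the 3447 non-SP 7 higher and 5 lower, where 11.2% and 8.21% did. The counts over the lists are thus near or below the shares of all genes. Of 13 stress-response targets tested, 2 rose in the 3447 SP, 2 rose and 1 fell in the 4346 SP, and 3 rose in the 3447 non-SP. Their median log2 difference was 0.03, 0.13 and 0.02 in that order, against -0.03, 0.02 and 0.04 over all genes. Herpud1, a component of the endoplasmic reticulum degradation machinery, and Map1lc3b, an autophagy protein, passed as higher in all 3 comparisons. Herpud1 signals were 452, 269 and 554 in the neurosphere SP, 1259, 2218 and 1748 in the 3447 SP and 1842, 1639 and 2231 in the 4346 SP, so that every tumour array was above every neurosphere array. The log2 difference was 1.97 ± 0.28 in the 3447 SP and 2.12 ± 0.28 in the 4346 SP (limma, adjusted p = 0.000116 and 5.95e-05), and 1.69 ± 0.28 in the 3447 non-SP (adjusted p = 0.000487). Map1lc3b differed by 1.04, 1.22 and 1.23 in the same order, all past the threshold, the first of them not after median centring (0.78, adjusted p = 0.0704).

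Among 11 amino acid transporters, 1 fell in the 3447 SP, 2 rose in the 4346 SP, and 2 rose and 1 fell in the 3447 non-SP. The shares of all genes that passed were 19.6%, 24.3% and 19.4%. Slc7a11, the cystine carrier, fell in the 3447 SP and non-SP. Its signals were 476, 261 and 440.1 in the neurosphere SP against 41.4, 71.3 and 36.3 in the 3447 SP, without overlap, a log2 difference of -2.90 ± 0.51 (limma, adjusted p = 0.000732). In the non-SP the difference was -1.68 ± 0.51 (adjusted p = 0.0289), a call lost without array 1 or 3 of the neurosphere non-SP (-1.52, adjusted p = 0.0976, and -1.46, adjusted p = 0.0925) or array 3 of the 3447 non-SP (-1.22, adjusted p = 0.149). Slc38a2, a neutral amino acid carrier, rose in the 4346 SP and in the 3447 non-SP. Its signals were 3487, 2494 and 4238 in the neurosphere SP against 5723, 5238 and 6228 in the 4346 SP, a log2 difference of 0.76 ± 0.17 (adjusted p = 0.00428). In the 3447 non-SP the difference was 0.70 ± 0.17 (adjusted p = 0.00849), which did not pass after median centring (0.86, adjusted p = 0.0566). Slc7a3, a cationic amino acid carrier, rose in the 4346 SP by 2.15 ± 0.40 (adjusted p = 0.000962).

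Of 12 tRNA synthetases, 1 rose in the 3447 SP, 2 in the 4346 SP and 2 in the 3447 non-SP, and 0 fell. Among all genes 10.7%, 14% and 11.2% rose. Tars, which charges threonine tRNA, rose in all 3 comparisons, by 0.75 ± 0.22 in the 3447 SP, 0.81 ± 0.22 in the 4346 SP and 0.77 ± 0.22 in the 3447 non-SP (limma, adjusted p = 0.0241, 0.0131 and 0.0197). Without both arrays that stand apart the SP calls were lost, at 0.74 in the 3447 SP (adjusted p = 0.0504) and 0.73 in the 4346 SP (adjusted p = 0.0533). They were lost as well without array 2 of the neurosphere SP (0.58, adjusted p = 0.103, and 0.65, adjusted p = 0.0636), and the 3447 SP call without array 3 of the neurosphere SP or array 2 or 3 of the 3447 SP (adjusted p of 0.0666 to 0.0967). The Tars call in the 3447 non-SP was lost without array 2 or 3 of the neurosphere non-SP or any 1 array of the 3447 non-SP (adjusted p of 0.0502 to 0.0708). After median centring Tars passed in neither the 3447 SP (0.56, adjusted p = 0.317) nor the 3447 non-SP (0.93, adjusted p = 0.0702). Gars, which charges glycine tRNA, rose in the 4346 SP by 0.70 ± 0.17 and in the 3447 non-SP by 0.51 ± 0.17 (adjusted p = 0.00683 and 0.0472). The non-SP call of Gars was lost in 11 of 15 fits that left out 1 array (adjusted p of up to 0.142) without both arrays that stand apart (adjusted p = 0.0519) and after median centring (0.67, adjusted p = 0.148).

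Of 9 bZIP partners and co-regulators, 3 fell in each tumour SP, 2 fell in the 3447 non-SP and 0 rose. Of all genes 8.96% fell in the 3447 SP, 10.3% in the 4346 SP and 8.21% in the 3447 non-SP. Only the 2 with the smallest p in each comparison are named, so not all that fell in a tumour SP are. Nfe2l2, the oxidative stress factor that pairs with ATF4, had signals of 1164, 1221 and 1023 in the neurosphere SP, 353, 446 and 328 in the 3447 SP and 416, 628 and 517 in the 4346 SP, so that both tumour groups lay below the neurosphere SP. Its differences were -1.64 ± 0.26 in the 3447 SP, -1.13 ± 0.26 in the 4346 SP and -1.84 ± 0.26 in the 3447 non-SP (limma, adjusted p = 0.000294, 0.00503 and 0.000102), the second of which did not pass after median centring (-0.93, adjusted p = 0.0932). Cebpd, a C/EBP family factor, fell in the 3447 SP, with a difference of -2.01 ± 0.41 (adjusted p = 0.00249). Ppargc1a, a co-activator of mitochondrial genes, fell in the 4346 SP and the 3447 non-SP, with differences of -2.50 ± 0.58 and -2.64 ± 0.58 (adjusted p = 0.00536 and 0.0042).

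Atf3, a bZIP repressor induced by stress, was the only gene of the 96 that passed between SP and non-SP cells, in neurospheres and in the average over origins, and 0 of 96 passed in line 3447. Its signals were 993, 1253 and 1215 in the neurosphere SP and 223, 241 and 255 in the non-SP, without overlap, and its averaged SP difference was 1.63 ± 0.22 (limma, adjusted p = 0.00518). The neurosphere difference of 2.24 ± 0.31 (adjusted p = 0.0217) was lost without any 1 array of either neurosphere group (adjusted p of 0.0644 to 0.0935) or of the 3447 non-SP (0.0507 to 0.0522), while the averaged call was kept in each of these fits.

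Of 13 genes of serine, glycine, one-carbon and proline synthesis, 2 fell in the 3447 SP, 2 rose and 1 fell in the 4346 SP, and 1 fell in the 3447 non-SP. The shares of all genes that passed were 19.6%, 24.3% and 19.4%. Mthfd1, a cytosolic folate enzyme, fell in both tumour SP groups, with log2 differences of -0.75 ± 0.19 in the 3447 SP and -0.89 ± 0.19 in the 4346 SP (limma, adjusted p = 0.0108 and 0.00289), the second of which did not pass after median centring (-0.71, adjusted p = 0.0719). Mthfd2l, a mitochondrial folate enzyme, fell in the 3447 SP and non-SP, with differences of -1.20 ± 0.25 and -0.79 ± 0.25 (adjusted p = 0.00313 and 0.0384). The non-SP call was lost without array 1 or 3 of the neurosphere non-SP or array 3 of the 3447 non-SP (adjusted p = 0.0976, 0.114 and 0.199) and after median centring (-0.62, adjusted p = 0.308). Mthfd2, the mitochondrial folate enzyme that ATF4 induces, rose in the 4346 SP by 0.62 ± 0.20 (adjusted p = 0.0359), a call lost without array 1 or 2 of the neurosphere SP or array 1 or 2 of the 4346 SP (adjusted p of 0.0705 to 0.173) and after median centring (0.82, adjusted p = 0.0721).

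Of 9 genes for eIF2 alpha kinases, their regulators and phosphatase subunits, 1 rose in the 3447 SP, 1 rose and 1 fell in the 4346 SP, and 0 passed in the 3447 non-SP. Among all genes 19.6%, 24.3% and 19.4% passed in these comparisons. The gene that fell was Impact, whose product inhibits the kinase GCN2. Its signals were 1181, 1062 and 1287 in the neurosphere SP, 2247, 2097 and 1587 in the 3447 SP and 205, 273 and 117 in the 4346 SP, the lowest of the 5 groups. The log2 difference in the 4346 SP was -2.51 ± 0.27 (limma, adjusted p = 8.06e-06). The gene that rose in both was Eif2ak3, the kinase PERK of the endoplasmic reticulum, by 0.71 ± 0.22 in the 3447 SP and 0.65 ± 0.22 in the 4346 SP (adjusted p = 0.0315 and 0.0394). Each of these calls was lost without any 1 array of the groups it compares (adjusted p of 0.0549 to 0.0906 in the 3447 SP and 0.0561 to 0.105 in the 4346 SP), and that in the 4346 SP without array 1 of the 3447 non-SP (adjusted p = 0.0538) and without both arrays that stand apart (adjusted p = 0.0650). Neither passed after median centring (adjusted p = 0.287 and 0.0621).

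Of 20 chaperones and related genes of the endoplasmic reticulum, 1 rose and 2 fell in the 3447 SP, 3 rose and 2 fell in the 4346 SP, and 0 passed in the 3447 non-SP. The shares of all genes that passed there were 19.6%, 24.3% and 19.4%. Xbp1, a transcription factor of the unfolded protein response, rose by 0.96 ± 0.31 in the 3447 SP and 1.16 ± 0.31 in the 4346 SP (limma, adjusted p = 0.0362 and 0.0114). Without both arrays that stand apart neither passed (adjusted p = 0.0861 and 0.0596), nor without array 2 of the neurosphere SP (0.67, adjusted p = 0.157, and 0.87, adjusted p = 0.0606), and the 3447 call was also lost without array 1 of the neurosphere SP or array 2 or 3 of the 3447 SP (adjusted p of 0.0741 to 0.124) and after median centring (0.80, adjusted p = 0.173). Dnajb9, a co-chaperone, fell in both tumour SP groups, with differences of -0.72 ± 0.22 and -0.74 ± 0.22 (adjusted p = 0.028 and 0.0212). Without both arrays that stand apart neither passed (adjusted p = 0.0547 and 0.0709), nor after median centring (adjusted p = 0.0742 and 0.307). With 1 array left out, the 3447 call of Dnajb9 was lost without array 1 or 3 of the neurosphere SP or any 1 array of the 3447 SP (adjusted p of 0.0564 to 0.121), and the 4346 call without array 1 of the neurosphere SP or array 1 or 3 of the 4346 SP (adjusted p of 0.0565 to 0.0912).

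Of all genes 8.96% fell in the 3447 SP, 10.3% in the 4346 SP and 8.21% in the 3447 non-SP. Of 9 mitochondrial chaperones and proteases, 0 rose and 1 fell in each of these 3 comparisons. The gene was Trap1, a mitochondrial chaperone, with differences of -0.77 ± 0.25 in the 3447 SP, -0.88 ± 0.25 in the 4346 SP and -0.98 ± 0.25 in the 3447 non-SP (limma, adjusted p = 0.0417, 0.0182 and 0.0111). None of the 3 passed after median centring (adjusted p = 0.0822, 0.203 and 0.129), and neither SP call was kept without both arrays that stand apart (adjusted p = 0.103 and 0.0684). With 1 array left out, the 3447 SP call was lost without any 1 array of the neurosphere SP, array 2 or 3 of the 3447 SP or array 2 of the 3447 non-SP (adjusted p of 0.0514 to 0.150). The 4346 call was lost without array 3 of the neurosphere SP or array 3 of the 4346 SP (adjusted p = 0.0759 and 0.0606), and the non-SP call without array 1 of the 3447 non-SP (adjusted p = 0.0657).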

How the data were processed

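RNA of 15 sorted cell samples was amplified (NuGEN Ovation Pico) and hybridised to 1 mouse expression array each. The deposited intensities are MAS5 signals, computed by the authors with Affymetrix Expression Console per the submitters' processing notes. The trimmed mean, with 2% left out at each end, was 500 on each array. A constant of 16 was added and log2 taken. Array medians differed by 2.23 times, more than the 1.5 set as the limit, so arrays were quantile normalized. Probe sets above the array's own median on at least 3 arrays were kept, and each gene was represented by its kept probe set with the highest mean. Of all probe sets, 34945 had 1 annotated symbol, 932 several and 9160 none listed. The fit used limma 3.58.1 under R 4.3.3 (lmFit and eBayes with a trend, all 5 groups in 1 fit, 10 residual degrees of freedom) and took in 11908 genes, with Benjamini-Hochberg adjustment and a threshold of 0.05, two-sided. The step was tested on simulated data. Errors of log2 differences are SE, and 3 arrays a group limit the precision.

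The 10 members and the pathway and marker lists were chosen with earlier results of these data known. Named were all members, and those past the threshold among the 2 genes of each pathway list with the smallest p in each comparison. Likeness was measured by Pearson r for Asns and Trib3, with the 5 closest named. Neurosphere SP and non-SP arrays with the same number deviated together (r = 0.577, 0.522 and 0.621 over genes), so these numbers pair the arrays, while those of line 3447 did not (r from -0.249 to -0.120). Alternatives covered the scaling, the constant, the filter, the choice of probe set, the trend, array weights, the groups in the fit, the replicate block and leaving out arrays. Leaving out each array with each probe set tested was added after seeing the data.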

Additional observations from a re-analysis of the deposited data

Results flagged for a closer look

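The 2 results below differ between tumour lines by the test of 3447 SP against 4346 SP. Impact had signals of 2247, 2097 and 1587 in the 3447 SP and 205, 273 and 117 in the 4346 SP, a log2 difference of 3.22 ± 0.27 (limma, adjusted p = 5.5e-06), higher in line 3447 on 3 of 3 arrays. Slc7a3 had signals of 75.1, 138 and 164 in the 3447 SP and 363, 1157 and 489 in the 4346 SP, a log2 difference of -2.30 ± 0.40 (adjusted p = 0.0056), higher in line 4346 on 3 of 3 arrays.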

How the results depend on the processing

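Beside the values reported, 28 settings were run, 15 of which leave out 1 array. Of 44 values of the 4 called member differences outside those, 27 stayed past the threshold and 17 did not, with no sign changed. The calls rest on 3 arrays a group and on probe sets that do not always go together. The number of members called in the 3447 SP against the neurosphere SP was 1, in place of 2, with arrays centred on their medians, signals as deposited, no filter, the mean of probe sets, no trend, array weights, the compared groups alone, or without both arrays that stand apart. With each probe set tested and a member counted by its brightest probe set alone, it was 1 as well, though Asns then passed by its other probe set. With the mean of probe sets the member called was Asns, and Shmt2 in the others. Of the members called there, Atf4 had a log2 difference of 0.16 with the mean of its probe sets (limma, adjusted p = 0.637) and 0.57 without both arrays (adjusted p = 0.105). In the 3447 non-SP the number was 0, in place of 1, with no filter or no trend, and 3 with array weights or the compared groups alone. With each probe set tested it was 0 by the brightest probe sets, while Asns passed by its other one. With median centring or the mean of probe sets it stayed 1, but the member was Trib3 or Asns and not Atf4. In the 4346 SP it was 0, in place of 1, with the compared groups alone or without both arrays. In the 3447 SP against the 4346 SP it was 1, in place of 0, with median centring (Phgdh, -1.44, adjusted p = 0.0349). With 1 array left out it ran from 1 to 3 in the 3447 SP, 0 to 3 in the 4346 SP and in the 3447 non-SP, 0 to 1 between the lines, and was 0 in each comparison of SP with non-SP. The causes were not tested.

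The replicate block, with neurosphere arrays paired, left 0 members called in each comparison of SP with non-SP and changed no member call, while all genes called went from 1 to 13 in line 3447, from 2 to 7 in neurospheres and from 20 to 95 in the average. With both origins paired these counts were 5, 2 and 24. Line 3447 numbers do not pair the arrays. All genes called in 3447 SP against non-SP were 50 with array weights, 20 with the compared groups alone, 7 without both arrays and 0 with median centring, no filter or the mean of probe sets. In neurospheres they were 1 with the mean of probe sets and 0 with median centring, no trend or the compared groups alone. In the average they were 8 with median centring or as deposited, 11 with no filter, 12 with the mean, 6 with each probe set, 4 with no trend and 13 with the compared groups alone, and in the difference of SP effects 1, in place of 0, with those groups alone. In the 4346 SP they were 1717, in place of 2891, with the compared groups alone, and between the lines 367 with median centring, 111 with the compared groups alone and 67 without both arrays, in place of 197. Probe sets in place of genes gave 3987, 5210, 3981 and 316 calls, in place of 2337, 2891, 2310 and 197, over a larger number tested. Median centring moved the median of all genes to -0.18, 0.19 and 0.18 in the tumour comparisons and to -0.38 between the lines. The share of calls that were higher went from 57.5% to 75.4% in the 4346 SP, from 57.7% to 68.4% in the 3447 non-SP and from 27.9% to 6.27% between the lines.

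With arrays centred on their medians, uncalled log2 differences changed sign in 3447 SP against non-SP (Atf4 -0.38, Asns -0.34, Psat1 -0.42), the averaged SP difference (Atf4 -0.14, Asns -0.13, Psat1 -0.14, Phgdh -0.00304, Shmt2 -0.083), the difference of SP effects (Atf4 -0.48, Ddit3 -0.12, Asns -0.43), 3447 non-SP against neurosphere non-SP (Sesn2 0.045), 3447 SP against 4346 SP (Atf4 -0.20, Atf5 -0.23, Ddit3 -0.19, Chac1 -0.22, Psat1 -0.27). With signals as deposited, uncalled log2 differences changed sign in 3447 SP against non-SP (Atf4 -0.049, Asns -0.016, Psat1 -0.097), the difference of SP effects (Atf4 -0.12, Asns -0.074), 3447 SP against 4346 SP (Sesn2 0.14). With the mean of probe sets, uncalled log2 differences changed sign in 3447 SP against non-SP (Atf4 -0.14, Psat1 -0.00916), neurosphere SP against non-SP (Ddit3 -0.18), the averaged SP difference (Shmt2 -0.00684), the difference of SP effects (Atf4 -0.39, Sesn2 0.11), 3447 non-SP against neurosphere non-SP (Psat1 -0.00703), 3447 SP against 4346 SP (Atf4 -0.28). With array weights, uncalled log2 differences changed sign in the difference of SP effects (Atf4 -0.091, Ddit3 -0.070, Asns -0.091), 3447 non-SP against neurosphere non-SP (Sesn2 0.017). Without both arrays that stand apart, uncalled log2 differences changed sign in 3447 SP against non-SP (Asns -0.020, Sesn2 -0.033, Psat1 -0.00346), the difference of SP effects (Atf4 -0.045, Asns -0.041).

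For neurosphere SP against non-SP the values with 1 array left out ran over Atf4 -0.11 to 0.30, Atf5 -0.18 to 1.01, Asns -0.26 to 0.49, Shmt2 -0.039 to 0.54. For the averaged SP difference the values with 1 array left out ran over Atf4 -0.031 to 0.18, Asns -0.11 to 0.27, Shmt2 -0.088 to 0.20. For 3447 SP against neurosphere SP the values with 1 array left out ran over Phgdh -0.50 to 0.026, Sesn2 -0.87 to 0.19, Psat1 -0.070 to 0.000611. For the difference of SP effects the values with 1 array left out ran over Atf4 -0.25 to 0.16, Atf5 -0.32 to 0.96, Ddit3 -0.42 to 0.85, Asns -0.44 to 0.30, Chac1 -0.068 to 0.91, Sesn2 -0.80 to 0.26. For 3447 non-SP against neurosphere non-SP the values with 1 array left out ran over Sesn2 -0.45 to 0.36, Psat1 -0.040 to 0.065. For 3447 SP against 4346 SP the values with 1 array left out ran over Trib3 -1.24 to 0.013, Sesn2 -0.49 to 0.56, Atf5 -0.51 to 0.70, Ddit3 -0.42 to 0.85, Chac1 -0.30 to 0.55. For 3447 SP against non-SP the values with 1 array left out ran over Asns -0.083 to 0.23, Sesn2 -0.041 to 1.01, Psat1 -0.042 to 0.067, Phgdh -0.34 to 0.046, Atf4 -0.00828 to 0.14.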
